A study of Mus musculus with 9 samples.

Results

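The aminoacyl-tRNA synthetases were followed across the mast cell libraries as 36 genes, 20 that encode cytosolic enzymes and 16 that encode mitochondrial ones. They were chosen by symbol from the 47643 genes in the deposited counts, each for an enzyme or an enzyme subunit, and the rule itself uses no measured value. All 36 were among the 11560 genes that passed the filter on low counts, so no member was left out of the tests.

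The cells were bone marrow-derived mast cells (BMMCs), which are primary mouse mast cells grown from C57BL/6 marrow in medium conditioned by WEHI-3 cells. Untreated cells (Control), cells stimulated through IgE with antigen (IgE+BSA) and stimulated cells that also received the plant flavonoid luteolin (IgE+BSA+Luteolin) gave 3 libraries each. The labels give luteolin as 10 μM for 24 h, and they carry this same treatment text on every sample, so the time of stimulation and its order relative to luteolin were not clear. No genotype or transgene was involved, and nothing in the labels says that replicates came from separate animals or cultures. The p-values therefore measure the spread between these libraries, which may be technical. In bulk RNA, fewer cells of a type and less RNA per cell cannot be told apart.

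A synthetase joins an amino acid to its tRNA, the step that ties the genetic code to protein. The cytosolic enzymes supply the ribosomes of the cytosol, whereas the mitochondrial ones are also encoded in the nucleus and are imported to charge the tRNAs of the organelle, where they serve the translation of respiratory chain subunits. Gars and Kars serve both compartments from 1 gene, Eprs joins glutamyl and prolyl activities in 1 protein, and Farsa and Farsb are the subunits of the phenylalanyl enzyme. Many cytosolic synthetase genes are known targets of ATF4, the transcription factor of the integrated stress response, which also drives amino acid synthesis and uptake.

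Promoters are shown first, because many cytosolic members are known ATF4 targets and the element that ATF4 binds is short enough to be seen by eye. Promoter windows of RefSeq (GRCm38.p6), from 250 bases before the start site to 50 after it, were at hand for 13 cytosolic and 14 mitochondrial members. The core of the C/EBP-ATF response element, searched as TGATGNAA on both strands, was present in 5 of the 13 cytosolic windows (38.5%), those of Gars, Aars, Tars, Iars and Yars. It was present in 0 of the 14 mitochondrial windows and in 4.51% of the 27025 windows of the same length. The 3 stretches below, each ending at or before the annotated start site, show the match of the genes with the element upstream of that site. Capitals mark the match, which lies on the opposite strand in each case and is therefore printed as the reverse complement of the core.
Gars, chr6:55037931-55038000, plus strand, match at position -30 from the start site: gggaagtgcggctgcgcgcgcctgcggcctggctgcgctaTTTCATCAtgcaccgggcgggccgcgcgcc
Aars, chr8:111033690-111033777, plus strand, match at position -112: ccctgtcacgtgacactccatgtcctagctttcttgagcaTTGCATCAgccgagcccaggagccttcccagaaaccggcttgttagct
Tars, chr15:11399659-11399713, minus strand, match at position -15: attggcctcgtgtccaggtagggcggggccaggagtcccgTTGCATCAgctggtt
In the GENCODE annotation Aars begins further upstream, at 111033144, so its stretch lies inside the annotated gene. The matches in Iars and Yars began at positions 8 and 4 after the start site, and Aars held a second match at position 10. The E-box CACGTG was found in 4 cytosolic windows (Farsb, Aars, Iars and Tars, 30.8%), in 1 mitochondrial window (Ears2, 7.14%) and in 8.09% of all windows, and in Aars it shares the printed stretch with the ATF core. The NRF1 motif was found in 3 cytosolic windows (23.1%), 2 mitochondrial windows (14.3%) and 5.19% of all. A match says only that these letters are in the window. Binding was not measured, and Cars, Hars, Lars, Nars, Rars, Vars, Wars, Hars2 and Pars2 had no window in the table.

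The cytosolic genes were expressed at a higher level than the mitochondrial ones in these cells, with 1 exception. Levels are given as CPM, the counts scaled to a common library total and normalized with TMM factors and, for comparison between genes, as the mean CPM per kb of exon over all 9 libraries. The cytosolic members ranged from 13.9 CPM per kb for Cars, the cysteinyl enzyme, to 85.5 for Nars, the asparaginyl enzyme, with Gars at 80.6 and Vars at 63.8. The mitochondrial members ranged from 0.744 for Mars2 to 10.1 for Rars2, except Lars2 at 36.1. Lars2, the mitochondrial leucyl enzyme, was thus at a cytosolic level, with a wide spread between replicates (556 ± 234 CPM in IgE+BSA+Luteolin, SD, n = 3). In pairs for the same amino acid, the cytosolic gene was 2.52-fold (Rars over Rars2) to 84.2-fold (Nars over Nars2) above the mitochondrial gene in mean CPM per kb, except that Lars over Lars2 was 0.982, with Lars2 slightly the higher gene. Neighbours in this order were often closer than their replicate spread, as the overlapping points of the plot of levels show.

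**Figure D1:**
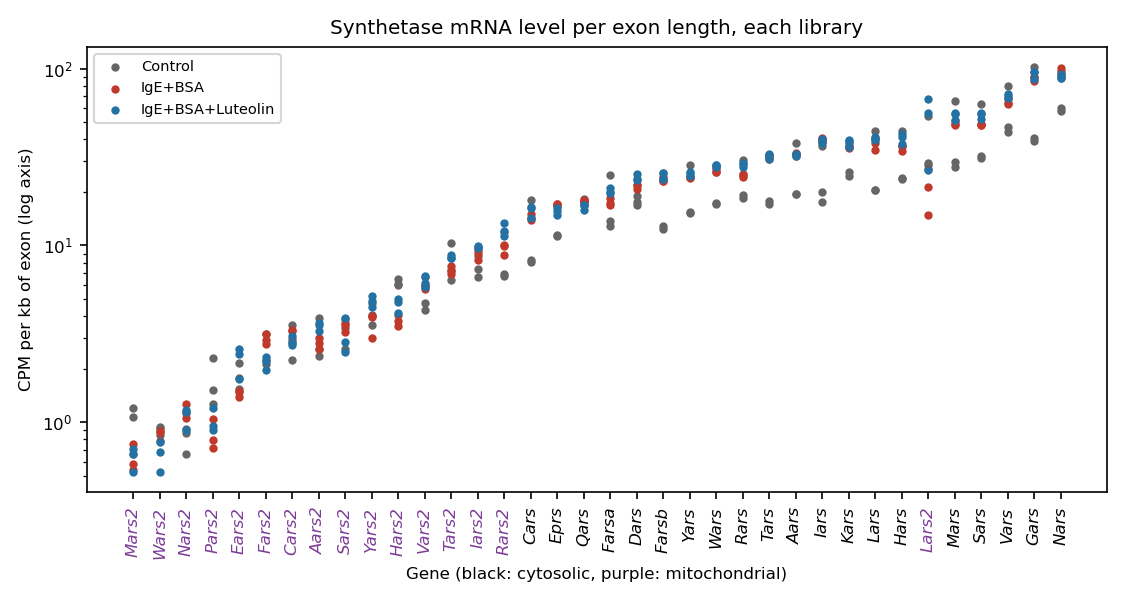
CPM per kb of exon (log axis) of the 36 synthetase genes, ordered by their mean, with 1 point for each of the 9 libraries, colored by group. The 20 cytosolic genes (black names) lie above 15 of the 16 mitochondrial genes (purple names) in mean level, and Lars2 lies among the cytosolic genes at 36.1.

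Before the comparisons, 1 library had to be set apart. Over all tested genes, the profile of Control replicate 1 was closer to a treated group than to the remaining Control libraries, which held for this library only. In the stress genes Atf4, Ddit3 and Chac1 it was outside the ranges of both treated groups. Atf4 was at 482 CPM in it, at 743 to 780.3 in IgE+BSA and at 429 to 476 in IgE+BSA+Luteolin. Ddit3 was at 57.0, at 68.8 to 75.0 in IgE+BSA and at 9.48 to 10.5 in IgE+BSA+Luteolin. Chac1, at 12.2, lay between the 50.2 to 56.9 of IgE+BSA and the 1.49 to 2.03 of IgE+BSA+Luteolin. Trib3, at 54.5, was within the 52.3 to 55.8 of IgE+BSA. What sets this library apart was not tested, a doubt that both versions of each comparison with Control carry. For the cytosolic synthetases it was above Control replicates 2 and 3 in 20 of 20 genes, against 43.5% of all genes tested, and the median fold was 1.86 for the cytosolic members, 1.26 for the mitochondrial members and 0.981 for all genes. The summed CPM of the cytosolic members was 4129 in Control replicate 1 and 2310.0 and 2319 in replicates 2 and 3. It was 3730, 3715 and 3663 in IgE+BSA and 3827, 3896 and 3736 in IgE+BSA+Luteolin, so the highest and the lowest of all 9 sums both came from Control. Replicates 2 and 3 were below the other 7 libraries for 19 of 20 cytosolic members (95%), for 4 of 16 mitochondrial members (25%) and for 23.4% of all genes.

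**Figure D2:**
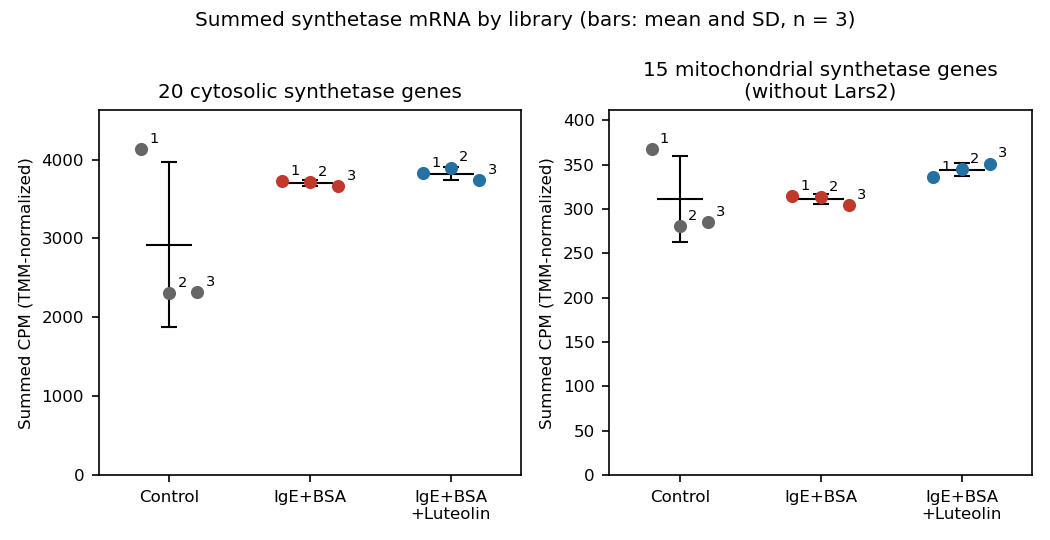
Summed CPM of the 20 cytosolic members (left) and of 15 mitochondrial members without Lars2 (right), 1 point per library with its replicate number, and bars for mean and SD (n = 3). Control replicate 1 stands at 4129 in the cytosolic sum, while Control replicates 2 and 3 stand at 2310.0 and 2319, below the IgE+BSA and IgE+BSA+Luteolin libraries.

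Other measures moved with that library. The mast cell markers Kit (1750 to 2479 CPM), Fcer1a (4364 to 6883 CPM) and Cpa3 (23034 to 33679 CPM) were abundant in all 9 libraries. The sum of 5 neutrophil genes was 189 CPM in Control replicate 1, 6.96 and 5.64 in Control replicates 2 and 3, 125 to 136 in IgE+BSA and 146 to 172 in IgE+BSA+Luteolin, and S100a8 and S100a9 made up most of it except in Control replicates 2 and 3, where Ly6g did. S100a9 was at 105 CPM in Control replicate 1, at 0.967 and 0.906 in replicates 2 and 3 and between 71.0 and 99.1 in the other 6 libraries, and S100a8 was at 60.4, 1.06 and 0.659 CPM in Control and between 35.2 and 57.7 in the others. The defining genes Elane (0 to 8.08 CPM) and Mpo (0.371 to 3.31 CPM) were low but were also lowest in Control replicates 2 and 3. The sum of 9 mast cell genes was 81700 CPM in Control replicate 1 and 54151 and 54457 in replicates 2 and 3. It was 57358 to 64229 in IgE+BSA and 68974 to 79958 in IgE+BSA+Luteolin. Cpa3, Tpsb2 and Cma1 carried most of this sum. These genes, Fcer1a and Hdc were higher in Control replicate 1 than in replicates 2 and 3. Kit (1750, 2303 and 2479 CPM in Control) and Ms4a2 (1789, 1947 and 1958) were instead lowest in replicate 1 within Control. The same held for Gata2 (1591, 1701 and 1893) and Mitf (71.0, 112.7 and 112.4). Basophil genes (3 of 3 tested) summed to 1651 to 1879 CPM in Control, 1446 to 1504 in IgE+BSA and 1610 to 1755 in IgE+BSA+Luteolin. Of these, Mcpt8, a basophil protease, was at 432 CPM in Control replicate 1, 21.8 and 18.7 in replicates 2 and 3 and 292 to 368 in the other 6 libraries. Prss34 was at 759, 650 and 610 CPM in Control, and Cd200r3 went the other way, at 688, 1044 and 1022. Macrophage genes (5 of 5) summed to 361 to 368 CPM in Control, 384 to 414 in IgE+BSA and 392.5 to 426 in IgE+BSA+Luteolin. The 4 dendritic cell genes summed to 8.73 to 14.8 CPM in Control, 13.1 to 14.3 in IgE+BSA and 14.7 to 17.6 in IgE+BSA+Luteolin. Of these only Itgax passed the filter, and Flt3, Cd209a and Ccr7 were at 0 in at least 1 library. The part of these values in the synthetase results was not tested. Each comparison with Control is therefore given with all 3 Control libraries and without replicate 1.

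With all 3 Control libraries, stimulation was not followed by a detectable change of any cytosolic synthetase. All 20 had a fold change above 0 on the log2 scale, with a median of 0.31 (range 0.01 to 0.67) against 0.02 for all genes. The median depended on the Control libraries and on scaling, at 0.17 without Control replicate 2, 0.16 without replicate 3 and 0.15 with library size alone. None of the 20 passed an adjusted p of 0.05 in edgeR's quasi-likelihood test with Benjamini-Hochberg adjustment over all 11560 genes, hereafter the edgeR adjusted p. DESeq2 and limma also called 0, and 3 had an unadjusted edgeR p under 0.05. Across all genes 3.27% were called, 2.25% as higher and 1.02% as lower. In 4 cytosolic genes (Dars, Eprs, Iars and Nars) every IgE+BSA library was above every Control library, a pattern shown by 16.7% of all genes, and in 0 of 20 was the order reversed. Qars, the glutaminyl enzyme, had the smallest fold change, 0.01 ± 0.10 (SE, edgeR adjusted p 0.953), with 121, 115 and 112 CPM in Control and 115, 119.5 and 117 in IgE+BSA.

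Among the mitochondrial genes 1 of 16 was called, and it fell. Hars2, the mitochondrial histidyl enzyme, was at 25.8, 25.6 and 27.5 CPM in Control and at 16.1, 15.0 and 17.4 in IgE+BSA. The groups did not overlap, and the log2 fold change was -0.71 ± 0.12 (edgeR adjusted p 0.0266). This call was lost when any 1 library other than Control replicate 1 was left out (edgeR adjusted p 0.0905 to 0.193), with a fold change of -0.66 to -0.76. It was also lost in a fit with a block for the replicate number. That fit called 0 mitochondrial members, and 127 of all 11560 genes higher and 17 lower. The median of the 16 was -0.09 (range -0.99 to 0.50), and DESeq2 called 2 and limma 1. Every IgE+BSA library was below every Control library for Ears2, Hars2, Lars2 and Pars2, a pattern of 12.1% of all genes, and above it for Nars2. Sars2 had the smallest fold change, 0.07 ± 0.18 (edgeR adjusted p 0.881), with 8.61 to 12.8 CPM in Control and 10.7 to 12.1 in IgE+BSA.

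Without Control replicate 1 the cytosolic synthetases were higher in IgE+BSA than in Control nearly as a class. Of the 20 genes 19 were higher and 0 lower, against 22.6% of all genes called higher and 22.4% called lower (45.0% in either direction), and the median log2 fold change was 0.59 against -0.01 for all genes. All 20 cytosolic members lay above the 2 Control libraries in every IgE+BSA library, against 36.2% of all genes, and the mitochondrial members did so in 7 genes and lay below them in 6, against 28.5% of all genes. The fold changes spread from 0.27 for Dars to 1.10 for Gars among the 19, so the members did not rise by the same amount. In this comparison Control was 2 libraries, and their choice rests on the position of replicate 1, which had been seen. The omitted Control replicate 1 was above all IgE+BSA libraries for 15 of 20 cytosolic members, against 4551 of 11560 genes.

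Gars, the glycyl enzyme of both compartments (chr6:55038007-55079500, plus strand), rose most. It was at 127 and 122 CPM in Control replicates 2 and 3, 317 in replicate 1, and 281, 281 and 265 in IgE+BSA. The log2 fold change without replicate 1 was 1.10 ± 0.07 (edgeR adjusted p 2.62e-08), and with it 0.54 ± 0.37 (0.463). Iars, the isoleucyl enzyme (chr13:49682100-49734267, plus strand), was at 93.0 and 106 CPM in Control replicates 2 and 3, 193 in replicate 1 and 206, 209.7 and 212 in IgE+BSA. All 3 stimulated libraries of Iars were above replicate 1 as well, and the fold change was 1.02 ± 0.07 (edgeR adjusted p 1.14e-07) without it and 0.67 ± 0.27 (0.219) with it. Part of the Iars transcript, 1656 bases, is 96.0% identical to the pseudogene Gm4849, so reads of these copies may have been split.

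Farsb, the beta subunit of the phenylalanyl enzyme (chr1:78417975-78488897, minus strand), was at 32.3 and 33.8 CPM in Control replicates 2 and 3, 67.2 in replicate 1 and 60.5, 60.4 and 64.2 in IgE+BSA. Its partner subunit Farsa was at 58.3 and 62.3 CPM, 114 in replicate 1 and 77.3, 84.2 and 78.9 in IgE+BSA. Both subunits were called without replicate 1, at 0.85 ± 0.08 (edgeR adjusted p 2.1e-06) and 0.36 ± 0.08 (edgeR adjusted p 0.00165), so the smaller of these rises belonged to Farsa, and the difference between them was not tested. Lars, the leucyl enzyme, was at 111 and 109.9 CPM, 237 in replicate 1 and 217, 203 and 187 in IgE+BSA, a change of 0.83 ± 0.08 (edgeR adjusted p 1.31e-06). Tars, the threonyl enzyme (chr15:11382301-11399665, minus strand), was at 105 and 101 CPM, 190.1 in replicate 1 and 191, 183 and 193 in IgE+BSA, with 0.83 ± 0.07 (edgeR adjusted p 4.72e-07). For Cars the values were 53.2 and 54.5 CPM, 119.5 in replicate 1 and 99.3, 91.4 and 94.5 in IgE+BSA, with 0.77 on the log2 scale (± 0.07, edgeR adjusted p 1.87e-06). In each of these genes except Tars replicate 1 was above the whole IgE+BSA group, and in Tars it was within it.

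Qars was the 1 cytosolic member not called without replicate 1. It was at 115 and 112 CPM in Control replicates 2 and 3 and 115 to 119.5 in IgE+BSA, with a log2 fold change of -0.0011 ± 0.07 (edgeR adjusted p 0.991). It also differed from the other members in its course over the libraries. Across the 9 libraries its log2 CPM had a Pearson r of 0.039 with the mean of the cytosolic members, against a median of 0.98 for the 20 and 18 of 20 over 0.9. All of these values share the 9 libraries, Control replicate 1 included, and are given as a description only.

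**Figure D3:**
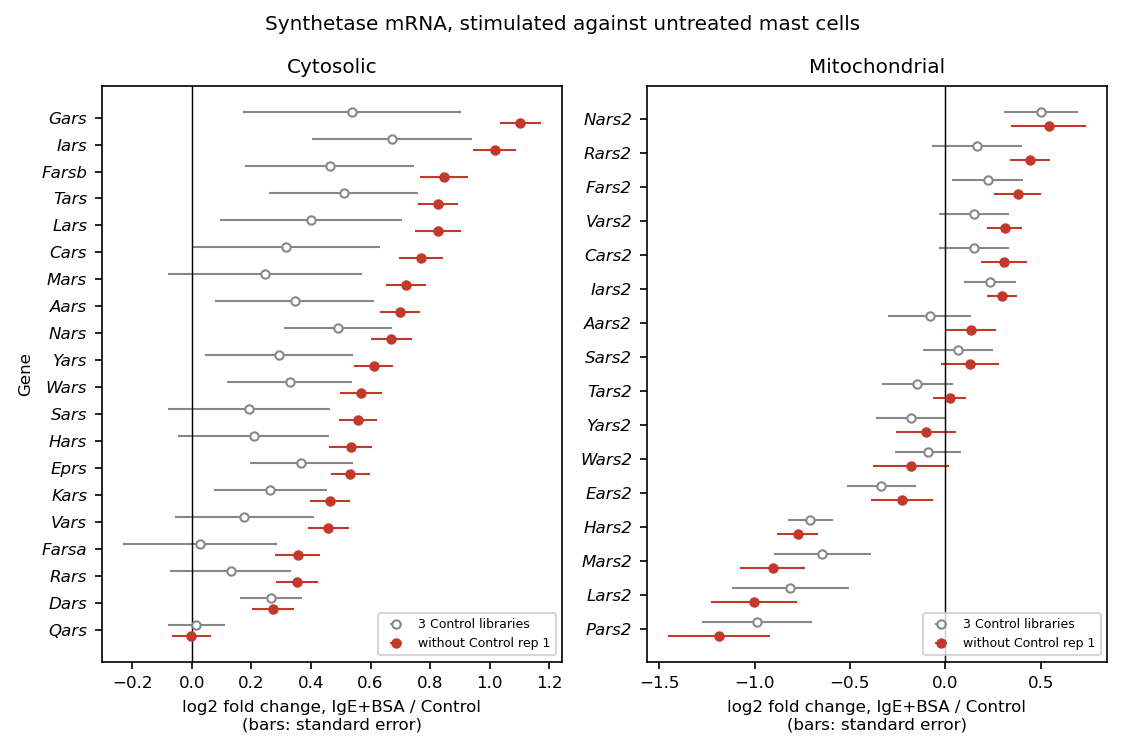
Log2 fold change of IgE+BSA over Control for the cytosolic (left) and mitochondrial (right) members, with open circles for 3 Control libraries, filled circles for the fit without Control replicate 1, and bars for the standard error. The cytosolic members move from a median of 0.31 to 0.59, while the mitochondrial members lie on both sides of 0 in both fits.

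The genes with the ATF core in their promoter window are set beside the rest for the same fit. Gars (1.10), Iars (1.02), Tars (0.83), Aars (0.70) and Yars (0.61) held the core, and the other 8 cytosolic genes with a window ranged from -0.0011 (Qars) to 0.85 (Farsb), so the groups of values overlapped. Aars, the alanyl enzyme (chr8:111033144-111057664, plus strand), was at 182 and 180.4 CPM in Control replicates 2 and 3, 354 in replicate 1 and 310.3, 307 and 297 in IgE+BSA. Its annotation shares 1326 bases with Exosc6 on the same strand, so some reads cannot be assigned to Aars alone.

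The mitochondrial genes did not move as a class in the same fit. Without Control replicate 1, 5 were higher (Nars2, Rars2, Fars2, Vars2 and Iars2), 4 were lower (Pars2, Lars2, Mars2 and Hars2) and 7 were not called, with a median of 0.08. The share called, 9 of 16, is to be read against 45.0% of all genes. Pars2, the mitochondrial prolyl enzyme, fell by 1.19 ± 0.27 on the log2 scale (edgeR adjusted p 0.0026), from 7.16 and 4.74 CPM in Control replicates 2 and 3, with 3.94 in replicate 1, to 2.22, 2.45 and 3.22 in IgE+BSA. Mars2, the mitochondrial methionyl enzyme, fell by 0.91 ± 0.17 (edgeR adjusted p 0.00069), from 13.5 and 12.2 CPM, with 7.49 in replicate 1, to 8.50, 6.05 and 6.53. These genes were among the least abundant members. In Mars2 replicate 1 was within the range of the stimulated libraries, whereas in Pars2 it was above all of them and below the other Control libraries.

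Lars2 fell by 1.005 ± 0.23 without replicate 1 (edgeR adjusted p 0.00257) and by 0.81 ± 0.31 with it (0.196). Its CPM was 324, 596 and 315 in Control and 301, 238 and 164 in IgE+BSA, so the groups did not overlap but Control replicate 2 alone was far above the rest. Hars2 fell by 0.77 ± 0.11 (edgeR adjusted p 5.85e-05) without replicate 1. Of the genes that rose, Nars2, the mitochondrial asparaginyl enzyme, went from 6.38 and 4.61 CPM in Control replicates 2 and 3, with 6.08 in replicate 1, to 8.82, 7.85 and 7.41 in IgE+BSA, a change of 0.54 ± 0.20 (edgeR adjusted p 0.0366). Rars2, the mitochondrial arginyl enzyme, went from 19.1 and 18.7 CPM, with 32.8 in replicate 1, to 27.4, 27.9 and 24.3, a change of 0.44 ± 0.11 (edgeR adjusted p 0.00366). Rars2 thus followed the cytosolic pattern over the Control libraries, whereas Nars2 was at a similar level in all 3 of them.

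When luteolin-treated cells were compared with stimulated cells, the larger changes among the synthetases were mitochondrial. This comparison does not use the Control libraries. The summed neutrophil, mast cell, basophil and dendritic cell genes given above were also higher in every IgE+BSA+Luteolin library than in every IgE+BSA library. Of the mast cell genes, Fcer1a, Ms4a2, Cpa3, Cma1 and Tpsb2 shared this order and Gata2 overlapped. Kit (1963 to 2021 CPM with luteolin against 2138 to 2166), Hdc (360 to 390 against 716 to 966) and Mitf (98.2 to 108 against 110 to 122) had the reverse order. The part of these genes in the result was not tested. Of the cytosolic genes 5 of 20 were higher and 0 lower, against 40.0% of all genes called, 18.1% as higher and 21.9% as lower, and the median log2 fold change was 0.09 (range -0.13 to 0.21) against 0.02 for all genes. Of the mitochondrial genes 7 of 16 were higher and 1 lower, with a median of 0.20 (range -0.43 to 1.25), or 0.14 without Lars2. The quartiles were -0.007 and 0.15 for the cytosolic members, -0.11 and 0.33 for the mitochondrial members and -0.24 and 0.20 for all genes. With all 9 libraries in 1 fit, 0 cytosolic and 0 mitochondrial members were called, but of all 11560 genes only 176 were called higher and 917 lower there. In the fit of the 6 libraries, the share of mitochondrial members called higher was above the share of all genes, and that of cytosolic members was near it. With library size alone 14 of 20 cytosolic members (median 0.20) and 9 of 16 mitochondrial members (median 0.31) were called higher, against 3856 of 11560 genes (median 0.13), so the reading of the cytosolic share depends on the scaling. DESeq2 and limma each called 6 cytosolic and 8 mitochondrial members. The groups did not overlap, with luteolin higher, in 9 cytosolic and 7 mitochondrial members, against 24.2% of all genes, and with luteolin lower in 3 and 2, against 26.2%.

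The cytosolic genes called higher were Rars, Farsa, Hars, Sars and Dars, by 1.13- to 1.15-fold. Rars, the arginyl enzyme (chr11:35808381-35834506, minus strand), was at 82.3, 80.7 and 78.5 CPM in IgE+BSA and 93.4, 94.8 and 90.1 in IgE+BSA+Luteolin, a log2 fold change of 0.21 ± 0.06 (edgeR adjusted p 0.00931). Farsa was at 77.3, 84.2 and 78.9 CPM and at 95.9, 90.4 and 89.6 with luteolin (0.20 ± 0.06, edgeR adjusted p 0.0152). The 3 luteolin libraries were above the 3 stimulated libraries in both genes. Sars, the seryl enzyme, was at 248, 249.9 and 248 CPM and at 286, 289.5 and 265 with luteolin (0.18 ± 0.05, edgeR adjusted p 0.0173). Dars, the aspartyl enzyme, was at 95.9, 95.2 and 90.4 CPM and at 110.3, 104 and 102 (0.17 ± 0.06, edgeR adjusted p 0.029). Hars, the histidyl enzyme, was at 89.4, 89.1 and 83.2 CPM and at 104, 100.4 and 91.8 (0.18 ± 0.06, edgeR adjusted p 0.0322). Hars lies head to head with Hars2 on the opposite strand, the annotated ends of the genes overlap, and the strand setting of the counting is not given in the sources used here. With gene length offsets the calls of Hars (0.067, edgeR adjusted p 0.371) and Rars (0.13, edgeR adjusted p 0.0709) ended. Each of the 5 calls was lost on leaving out at least 1 library. The number of cytosolic calls was 1 without IgE+BSA replicate 1, luteolin replicate 1 or luteolin replicate 2, 3 without IgE+BSA replicate 3 and 8 without luteolin replicate 3.

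The 6 cytosolic genes with the largest rise in the fit without Control replicate 1 (Gars, Iars, Farsb, Lars, Tars and Cars) were not called between luteolin-treated and stimulated cells. Gars was at 281, 281 and 265 CPM in IgE+BSA and 299, 299 and 273 in IgE+BSA+Luteolin, with overlapping groups and a log2 fold change of 0.08 ± 0.06 (edgeR adjusted p 0.299). Tars had the smallest change, -0.01 ± 0.05 (edgeR adjusted p 0.936), with 183 to 193 CPM in IgE+BSA and 182 to 194 with luteolin. Eprs, the glutamyl-prolyl enzyme, had the lowest value of the class, -0.13 ± 0.05, with 312, 305 and 309 CPM against 269, 284 and 294. The groups of Eprs did not overlap, yet it did not pass the threshold (edgeR adjusted p 0.0711).

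Lars2 had the largest change of all 36 members. It was at 301, 238 and 164 CPM in IgE+BSA and at 749, 624 and 295 in IgE+BSA+Luteolin. The groups overlapped, because the lowest luteolin library was below the highest stimulated one, and luteolin replicate 3 stood well under the other luteolin libraries. The log2 fold change was 1.25 ± 0.24 (edgeR adjusted p 0.000595), between 0.97 and 1.55 when 1 library at a time was left out, and the call was kept each time, but it was lost with all 9 libraries in the fit (1.25, edgeR adjusted p 0.0663). Lars2 lies at chr9:123366927-123462666 on the plus strand.

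The other mitochondrial genes changed by less and had tighter replicates. Ears2, the mitochondrial glutamyl enzyme (chr7:122037213-122067263, minus strand), was at 7.19, 7.65 and 7.70 CPM in IgE+BSA and 9.09, 12.6 and 13.3 with luteolin, a change of 0.64 ± 0.15 (edgeR adjusted p 0.00348). Rars2 (chr4:34614957-34660167, plus strand) was at 27.4, 27.9 and 24.3 CPM and at 31.4, 33.5 and 37.0, a change of 0.36 ± 0.09 (edgeR adjusted p 0.00447). In both genes all 3 luteolin libraries were above all 3 stimulated ones. Yars2, the mitochondrial tyrosyl enzyme, was at 12.6, 9.45 and 12.3 CPM and at 16.3, 14.1 and 15.3 (0.41 ± 0.13, edgeR adjusted p 0.0167). Aars2, the mitochondrial alanyl enzyme, was at 13.3, 14.3 and 12.4 CPM and at 15.7, 16.9 and 17.5 (0.33 ± 0.11, edgeR adjusted p 0.0236). Yars2 and Aars2 lost their calls when certain single libraries were left out, which was not seen for Lars2, Ears2, Rars2 or Fars2. Tars2, the mitochondrial threonyl enzyme, was at 49.9, 48.0 and 52.9 CPM and at 61.3, 59.2 and 59.0 (0.25 ± 0.07, edgeR adjusted p 0.00615), and Hars2 was at 16.1, 15.0 and 17.4 CPM and at 17.8, 21.2 and 20.4 (0.30 ± 0.10, edgeR adjusted p 0.0319).

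Fars2, the mitochondrial phenylalanyl enzyme (chr13:36117412-36726280, plus strand), was the 1 member that fell. It was at 16.8, 18.3 and 15.8 CPM in IgE+BSA and at 13.4, 12.8 and 11.4 with luteolin, without overlap, and fell by 0.43 ± 0.11 on the log2 scale (edgeR adjusted p 0.00594). The cytosolic subunit Farsa was higher in the same libraries, and the log2 ratio of Farsa over Fars2 shifted by 0.63, the most of the pairs in that direction. The largest shift in the other direction was -1.15 for Lars over Lars2, followed by -0.76 for Eprs over Ears2. These differences of fold changes are descriptions and were not tested. Mars2 had the smallest change of the class, 0.02 ± 0.17 (edgeR adjusted p 0.936), at 6.05 to 8.50 CPM against 5.92 to 8.03.

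**Figure D4:**
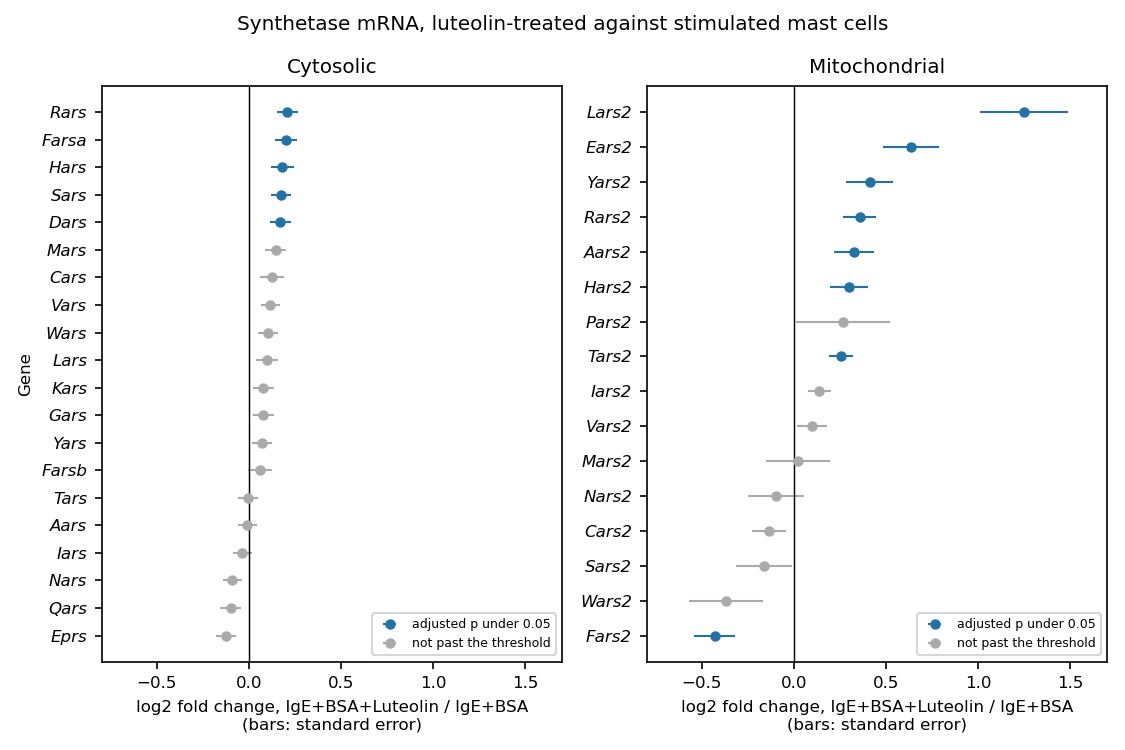
Log2 fold change of IgE+BSA+Luteolin over IgE+BSA for the cytosolic (left) and mitochondrial (right) members, blue where the edgeR adjusted p was under 0.05, with bars for the standard error. The cytosolic members stay between -0.13 and 0.21, and the mitochondrial members spread from -0.43 (Fars2) to 1.25 (Lars2).

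Luteolin-treated cells were also compared with untreated cells. With all 3 Control libraries 0 of 20 cytosolic and 0 of 16 mitochondrial members were called, against 3.04% of all genes (0.285% higher and 2.75% lower). At an unadjusted edgeR p under 0.05 there were 3 and 4, DESeq2 called 1 and 1, and limma 0 and 0. The groups did not overlap, with luteolin higher, in 3 cytosolic and 1 mitochondrial members, against 13.6% of all genes, and with luteolin lower in 1 and 3, against 14.9%. The medians were 0.39 and 0.17. Without Control replicate 2 they were 0.25 and 0.070, and without replicate 3 they were 0.23 and 0.071. Qars (-0.09 ± 0.09, edgeR adjusted p 0.559) and Cars2 (0.01 ± 0.18, edgeR adjusted p 0.968) had the smallest changes. Without Control replicate 1, 19 of 20 cytosolic members were higher and 0 lower, with a median of 0.72 and up to 1.22 ± 0.07 for Gars (edgeR adjusted p 7.63e-10), and Qars was again the 1 member not called. Of the mitochondrial members 7 were higher (Rars2, Aars2, Iars2, Ears2, Vars2, Yars2 and Tars2) and 3 lower (Pars2, Mars2 and Hars2), with a median of 0.30. The shares of all genes in that fit were 29.9% higher and 30.1% lower, 60.0% in all. Every luteolin library was above both Control libraries for 19 cytosolic and 6 mitochondrial members, against 37.2% of all genes, and below both for 1 and 4, against 36.4%. This comparison shares its luteolin libraries with the one above and its Control libraries with the stimulation comparison, so the values are not independent of either.

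**Figure D5:**
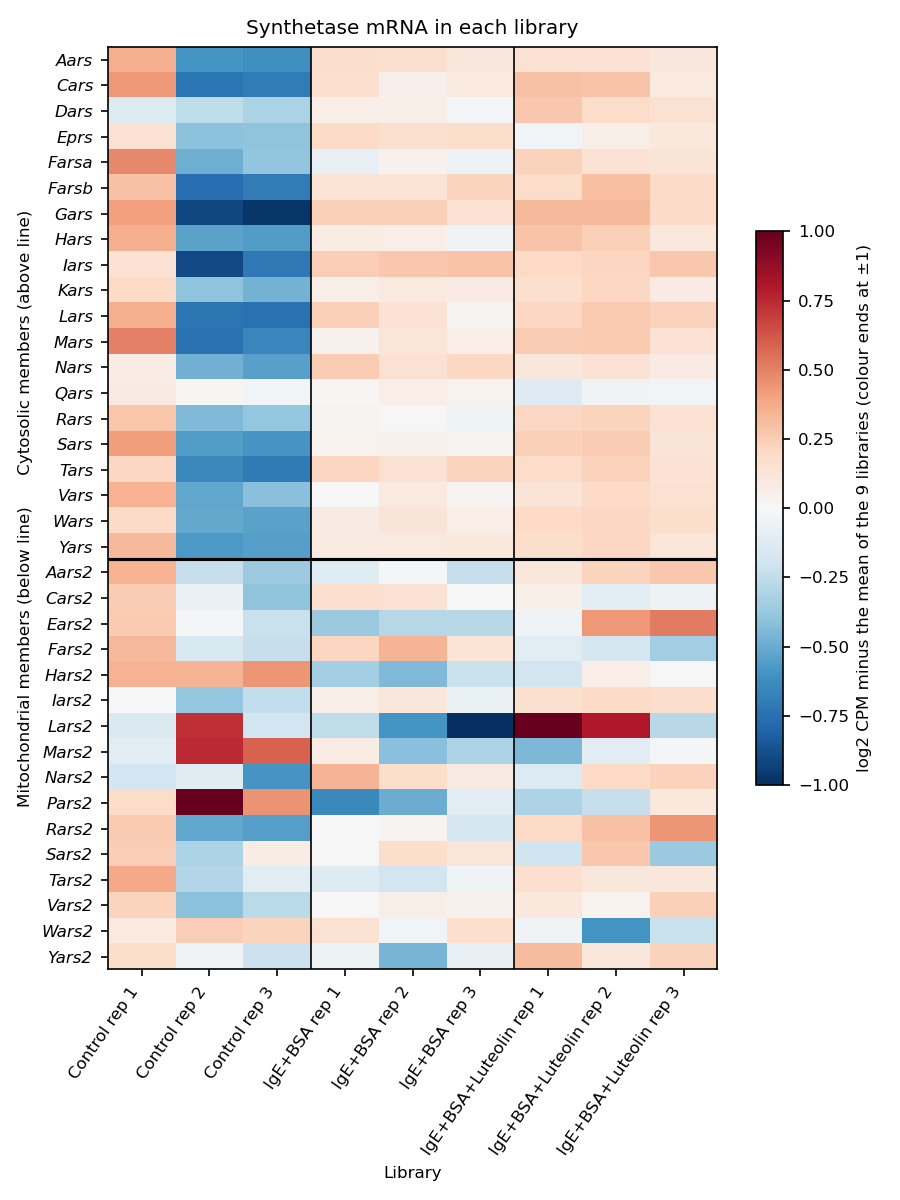
Log2 CPM of each member minus its mean over the 9 libraries, by library, with cytosolic members above the line and mitochondrial members below it, and colors that end at 1 unit in either direction. Control replicates 2 and 3 are blue for 19 of 20 cytosolic members, and Qars stays near 0 in all 9 libraries.

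The genes around charging were read from lists, and their counts are to be set beside the 18.1% of all genes called higher and 21.9% called lower with luteolin. Against these shares, 1 call in a list of 3 or 6 genes says nothing about the list. The scaffold proteins of the multisynthetase complex, Aimp1, Aimp2 and Eef1e1, hold several cytosolic synthetases together. With luteolin Eef1e1 was higher than in stimulated cells, at 27.5, 26.0 and 29.5 CPM against 21.6, 24.7 and 23.2 (0.26 ± 0.09, edgeR adjusted p 0.0284), and Aimp1 and Aimp2 were not called. Of 3 tested genes that clear mischarged tRNA, 0 were called by edgeR, DESeq2 or limma and 0 had an unadjusted edgeR p under 0.05, with a median of 0.18. Of 6 genes for tRNA export and end processing 1 was called with luteolin, Ssb, which encodes the La protein that binds the ends of new tRNA transcripts. Ssb was at 253, 249.7 and 254 CPM in IgE+BSA and 298, 286 and 282 with luteolin (0.20 ± 0.05, edgeR adjusted p 0.00673). Between IgE+BSA and Control, with all 3 Control libraries, 1 of these 6 was called (2.25% of all genes were called higher), the tRNA exporter gene Xpot, at 113, 97.4 and 92.7 CPM in Control and 167, 157 and 159.9 in IgE+BSA, without overlap (0.67 ± 0.12, edgeR adjusted p 0.0305).

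Selenocysteine has no synthetase of its own and is made on a seryl-tRNA that Sars charges. All 4 genes listed for selenocysteine were called by edgeR with luteolin, 3 higher and 1 lower (limma called 4 and DESeq2 3). Of all genes 18.1% were called higher and 21.9% lower. Pstk, the kinase of the route, was at 6.06, 6.85 and 7.80 CPM in IgE+BSA and 9.84, 10.2 and 8.99 with luteolin (0.49 ± 0.15, edgeR adjusted p 0.0135). Sephs2, the selenophosphate synthetase, was at 31.2, 32.2 and 34.2 CPM and at 40.2, 39.5 and 43.6 (0.34 ± 0.08, edgeR adjusted p 0.00228). Sephs1 was higher by 0.27 ± 0.07 (edgeR adjusted p 0.00639). In contrast, Sepsecs, which completes the conversion to selenocysteine, was at 18.3, 17.3 and 19.4 CPM and at 13.1, 15.8 and 16.1, and fell by 0.28 ± 0.11 (edgeR adjusted p 0.0467). Between IgE+BSA and Control 0 of the 4 were called by edgeR, DESeq2 or limma, and 0 had an unadjusted edgeR p under 0.05.

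The ATF4 program was compared with the synthetases because many cytosolic members are known to belong to it. Atf4 itself was at 482, 404 and 362 CPM in Control, 770.4, 780.3 and 743 in IgE+BSA and 476, 475 and 429 in IgE+BSA+Luteolin. It rose with stimulation by 0.87 ± 0.13 (edgeR adjusted p 0.0191) with all 3 Control libraries and was lower with luteolin than in stimulated cells by -0.73 ± 0.06 (edgeR adjusted p 1.98e-08). The IgE+BSA libraries did not overlap with either of the other groups. In IgE+BSA+Luteolin against IgE+BSA, 9 of 12 ATF4-linked transcription factors and stress genes fell and 0 rose (median -1.01), and 5 of 9 amino acid transporters fell and 0 rose (median -0.48), where 21.9% of all genes were called lower and 18.1% higher. Of 11 genes of amino acid and one-carbon synthesis, 1 rose and 1 fell (median 0.08), a median close to the 0.09 of the cytosolic synthetases. Of 12 genes for the kinases of the integrated stress response, for eIF2 and for its exchange factor and phosphatase, 2 rose and 3 fell.

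The largest changes in these lists were far above those of the synthetases. Chac1, a glutathione-degrading enzyme, was at 50.2, 56.9 and 56.4 CPM in IgE+BSA and 1.49, 1.90 and 2.03 with luteolin, and fell by 4.90 ± 0.12 on the log2 scale (edgeR adjusted p 6.76e-15). Ddit3, the stress transcription factor CHOP, was at 74.0, 68.8 and 75.0 CPM and at 9.84, 9.48 and 10.5, and fell by 2.87 ± 0.08 (edgeR adjusted p 2.92e-14). Ddit4, an inhibitor of mTORC1, fell by 2.60 ± 0.06 and the stress protein gene Nupr1 by 2.18 ± 0.09. Among the transporters Slc7a11, the cystine importer, was at 50.3, 35.6 and 53.6 CPM and at 12.7, 13.6 and 15.1, and fell by 1.75 ± 0.13 (edgeR adjusted p 9.17e-09). Slc38a2 fell by 1.04 ± 0.06, Slc7a1 by 0.84 ± 0.07 and Slc7a5, the importer of large neutral amino acids, by 0.65 ± 0.06. Ppp1r15b and Ppp1r15a, which encode regulators of the eIF2 phosphatase, fell by 0.98 ± 0.06 and 0.57 ± 0.06. Of the synthesis genes Got1 fell by 0.41 ± 0.07 and Phgdh, the first enzyme of serine synthesis, was higher at 114, 125 and 113 CPM against 101, 107 and 95.4 (0.22 ± 0.06, edgeR adjusted p 0.0133).

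The calls of these lists with stimulation also depended on Control replicate 1. With all 3 Control libraries, 0 of 11 synthesis genes, 2 of 9 transporters and 4 of 12 ATF4-linked stress genes were called higher by edgeR and 0 lower, against 2.25% of all genes higher and 1.02% lower. For the synthesis genes DESeq2 called 1 and limma 0, and 1 had an unadjusted edgeR p under 0.05. Without replicate 1 these were 11 of 11 (median 1.16), 9 of 9 (median 0.89) and 9 of 12 (median 0.81), and again 0 were lower, but in that fit 22.6% of all genes were called higher and 22.4% lower. Phgdh shows this dependence in its values, at 154, 30.6 and 31.1 CPM in Control, and Atf4 and Slc7a11 show the other pattern, with all Control libraries below all IgE+BSA libraries. The 5 genes outside the members whose log2 CPM over the 9 libraries was most like the mean of the cytosolic synthetases were Shmt2, Ifi30, Mcpt4, Eri3 and Phgdh, with Pearson r between 0.997 and 0.998. Shmt2, the mitochondrial serine hydroxymethyltransferase, was at 355, 111 and 109.7 CPM in Control, 262, 278 and 267 in IgE+BSA and 293, 302 and 286 in IgE+BSA+Luteolin. In Shmt2, as in 19 of 20 cytosolic members, Control replicates 2 and 3 were the lowest of the 9 libraries.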

How the data were processed

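RNA was measured by sequencing of 9 BMMC libraries, 3 each of Control, IgE+BSA and IgE+BSA+Luteolin, grouped by their labels. The authors made stranded mRNA libraries, filtered the reads, aligned them to mm10 with STAR 2.7.0f (per the submitters' processing notes) and deposited the raw counts of each Ensembl gene, without normalization. The annotation release, the strand setting and the treatment of multi-mapped reads are not given in the sources used here. Library totals lay between 9515004 and 24605689 counts, where 3 counts equal 0.122 to 0.315 CPM (counting error only). Of the 47643 genes, 24256 had 0 counts in every library, among them all 37 genes of the mitochondrial chromosome.

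Counts were analysed in R 4.3.3. Genes with a median CPM above 1 over the 9 libraries (11560) were tested by edgeR 4.0.16 (quasi-likelihood test, TMM factors, two-sided, Benjamini-Hochberg adjustment over all of them, threshold 0.05) on the 6 libraries of each comparison, or 5 without Control replicate 1. Standard errors are the fold change divided by the square root of the F statistic. DESeq2 1.42.0 and limma 3.58.1 (mean-variance trend) were alternatives. Errors after a log2 fold change are SE and replicate values are given singly. In data simulated from these libraries, 200 of 11560 genes were changed 2-fold. Of these, 89% were recovered for IgE+BSA+Luteolin against IgE+BSA, 59% for IgE+BSA against Control and 57% for IgE+BSA+Luteolin against Control. The shares of false calls were 5.32%, 6.35% and 5%. Changes smaller than 2-fold, such as those of most synthetases here, were not simulated. Replicates were checked for identity, and their counts differed by a chi-square of at least 3.82 times its degrees of freedom, so all were kept.

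The members and lists were chosen with earlier results of these data known. Full statistics are given for at most 6 members per class and comparison, those with the largest change past the threshold, and for the member with the smallest change. In each list at most 4 genes with the largest change past the threshold under luteolin are named, plus Atf4. Values of other members (Farsa and Aars with stimulation, Gars, Eprs, Tars2 and Hars2 with luteolin) and of Xpot, Trib3, S100a8, S100a9 and Mcpt8 were added after they were seen. The same holds for single values of the other mast cell and basophil markers. Likeness was the Pearson correlation of log2 CPM with the mean of the cytosolic members over the 9 libraries, and the 5 highest genes are named. Positions and exon lengths are from the GENCODE annotation of GRCm38 and promoter windows from RefSeq. Protein sequences were not analysed here, and a gene list is not reported here.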

Additional observations from a re-analysis of the deposited data

How the results depend on the processing

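Called means an edgeR adjusted p under 0.05 unless another tool is named. For IgE+BSA+Luteolin against IgE+BSA the 5 cytosolic calls became 14 with scaling by library size alone and 0 with all 9 libraries in 1 fit. In the fit of all 9, 0 cytosolic members had an unadjusted p under 0.05, and of all 11560 genes 176 were called higher and 917 lower. DESeq2 and limma on the 6 libraries called 6 cytosolic members each. Leaving out 1 library gave 1 to 8. The 8 mitochondrial calls became 0 with all 9 libraries in the fit, where 5 had an unadjusted p under 0.05, and 6 to 7 with 1 library left out. Library size alone moved the median of all genes from 0.02 to 0.13, the cytosolic median from 0.09 to 0.20 and the mitochondrial median from 0.20 to 0.31, and changed the calls over all genes from 2097 higher and 2527 lower to 3856 and 1767. With 1 library left out the cytosolic median was 0.07 to 0.11, the mitochondrial median 0.14 to 0.20 and the cytosolic minus mitochondrial difference -0.12 to -0.025. Without Lars2, an alternative chosen after seeing the data, the mitochondrial median was 0.14.

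For IgE+BSA against Control, leaving out 1 library gave 0 to 19 cytosolic and 0 to 9 mitochondrial calls, the highest without Control replicate 1 in both. DESeq2 called 2 mitochondrial members. The mitochondrial median was -0.26 with library size alone and -0.15 to 0.075 with 1 library left out. For IgE+BSA+Luteolin against Control, the cytosolic calls were 1 with DESeq2, with all 9 libraries or with gene length offsets and 0 to 19 with 1 library left out, and the mitochondrial calls were 1 with DESeq2 or all 9 libraries and 0 to 10. Of the results for single members, 212 values under an alternative kept their side of the threshold, 40 lost it and 0 reversed. The cause was not tested.

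Libraries with the same replicate number were checked for pairing. In IgE+BSA and IgE+BSA+Luteolin their deviations had a mean correlation of 0.14 (lowest -0.02) against -0.07 for different numbers, and not every pair was over 0.1, so they share only a number. With this replicate block in the fit, 8 cytosolic (7 higher and 1 lower) and 9 mitochondrial members were called in this comparison. Of all 11560 genes, 2639 were called higher and 2943 lower there. Between IgE+BSA and Control 0 mitochondrial members were called with the block, and of all genes 127 were called higher and 17 lower. Depth limits the members under about 10 CPM most, such as Pars2, Wars2, Mars2 and Nars2.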
